A study of Rattus norvegicus with 18 samples.

Results

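At 412 CpGs of chromosomes 1 to 20, the methylation level of the striatum moved between rats in steps, from nearly unmethylated to about equal parts methylated and unmethylated reads to nearly fully methylated. The members were chosen by their measured values. A CpG was taken when it was present in all 18 striata with at least 10 reads per cytosine, both strands merged. Each of the 9 rats had to lie between 0% and 15% (low band), between 35% and 65% (middle band) or between 85% and 100% (high band), with the reads of its 2 striata added up. The rats had to occupy at least 2 of these bands, and the 2 striata of a rat could differ by at most 30 percentage points. The 412 members were 0.141% of the 292497 CpGs of these chromosomes that were present in all striata.

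The series holds reduced representation bisulfite sequencing (RRBS) of striata, control and lesioned, from juvenile male Wistar rats. All rats, the UNT group included, received 6-OHDA, a toxin of dopamine neurons, in the left medial forebrain bundle on postnatal day 21, so that each rat has a lesioned striatum and a control striatum on the other side. The 3 UNT rats were given saline, the 3 L-DOPA rats L-DOPA (6 mg/kg) with benserazide (15 mg/kg), and the 3 L-DOPA+R rats the same with Riluzole (6 mg/kg) added. Treatment ran from postnatal day 35 to 49 in 6 doses, a final dose followed on postnatal day 53, with collection of both striata 2 h later. The model is a chemical lesion in outbred animals, and whole striatum mixes neurons and glia. The labels name no animal, and a control and a lesioned striatum with the same treatment and replicate number were taken as those of 1 rat, which is an inference from the numbers and the lesion of 1 side. Rats are named here by their treatment and this number.

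In mammals, cytosines of CpGs are methylated on both strands, since the maintenance methyltransferase copies the mark of the old strand to the new strand after replication. Bisulfite converts unmethylated cytosines, which are then read as T, so that a CpG that is lost through a C-to-T change in the DNA of an animal is read like an unmethylated CpG. An autosomal variant is carried on none, one or both chromosome copies, in the same way in every tissue of an animal, and variants close together on a chromosome are inherited together. Levels in steps are also known from imprinted genes, where the copy of one parent is methylated. The DNA sequence of the rats was not analysed here, and the part of genotype in the members was not tested.

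Between 18471279 and 49113957 calls were listed per striatum, with 30288745 or more in each UNT striatum and 30764504 or fewer in each treated striatum. The UNT libraries also differed in the coverage of cytosines at certain distances from others. At CpGs present in all striata, the cytosines 50 bases past a further called cytosine on their own strand held between 0.498 and 0.512 times the reads of those 49 bases past in the 6 UNT striata, and between 0.760 and 0.824 times in the 12 treated striata. Those 51 bases past held between 0.990 and 1.01 times the reads of those 50 bases past in UNT and between 0.604 and 0.646 times in the treated striata, so that the fall came 1 base later there. Reads were 50 bases long per the methods. The place of a cytosine within the reads was not measured, and such distances are given for the members below.

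**Figure D1:**
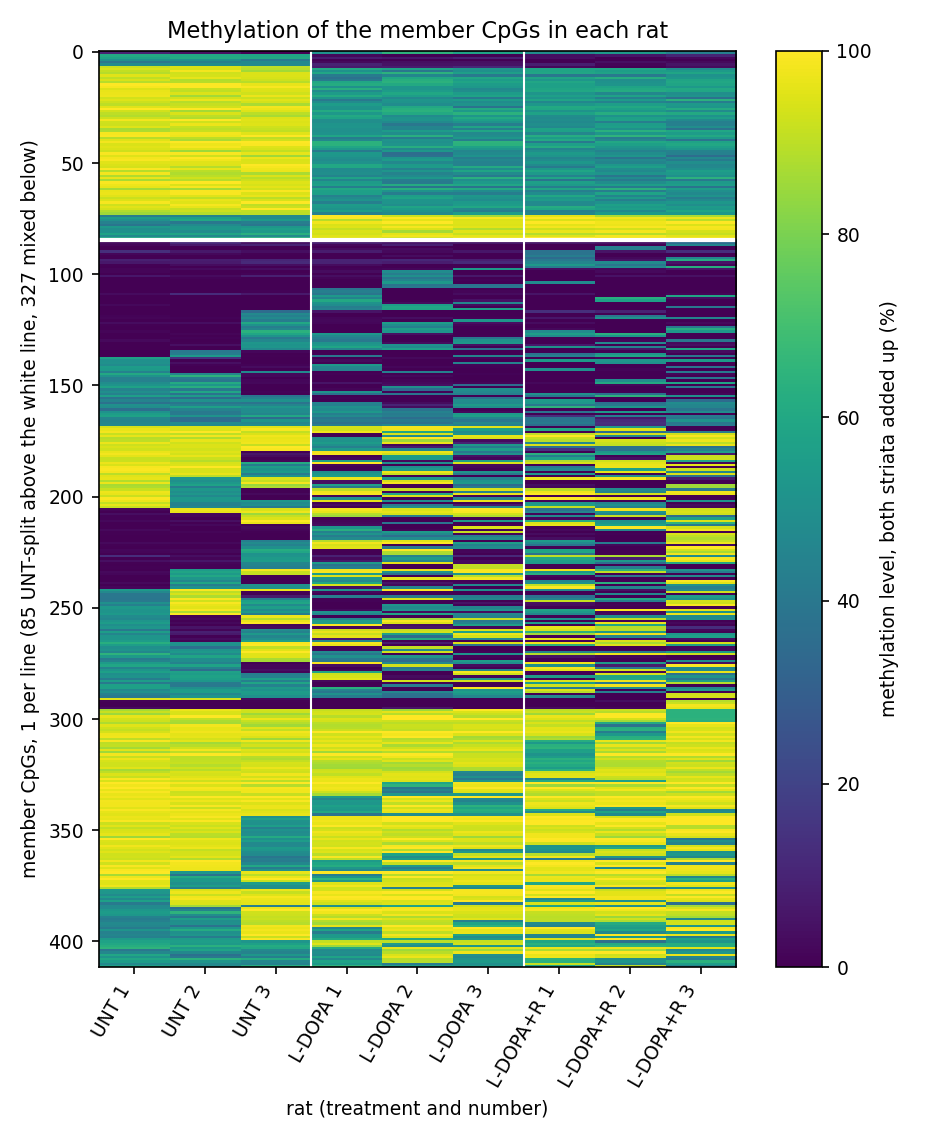
Methylation level (%, colour) of the 412 members, 1 CpG per line, in the 9 rats, with the reads of both striata added up. The 85 CpGs above the white line had all UNT rats in 1 band and all treated rats in another, and the 327 below it had other patterns.

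The members fell into 2 kinds. At 85 members (20.6%), all 3 UNT rats lay in 1 band and all 6 treated rats in 1 other band, and these are called UNT-split members. The other 327 are called mixed members. Of the UNT-split members, 66 were high in UNT and in the middle band in the treated rats, 11 were in the middle band in UNT and high in the treated rats, 5 middle and low, 2 low and middle and 1 high and low. The mixed members showed 233 different patterns over the rats, of which 194 were found at 1 CpG each. Of the mixed members, 122 held all 3 bands, 116 the middle and the high band, 84 the low and the middle band, and 5 the low and the high band without a rat between them. At 91 mixed members, 8 rats shared a band and 1 rat stood alone in another.

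The levels within a band are limited by the rule, and are given as a description. In the mixed members, the 988 rat values of the middle band had a median of 50% with quartiles of 44.3% and 54.8%. The exact 95% interval (Clopper-Pearson) held 50% at 900 of them (91.1%). The 885 low values had a median of 0%, and 547 of them (61.8%) had no methylated read. The 1070 high values had a median of 94.8%, the quartiles being 91.9% and 97.6%. Over all members, a rat had between 20 and 979 reads at a CpG with a median of 78 (68 at all CpGs). The exact interval was 6.98 points wide in the low band, 21.3 in the middle band and 10.9 in the high band (medians). The limit given for a count of 0 is 3 reads of the total, which is lower than the upper end of the exact interval. By this limit, a count of 0 allowed a level of up to 4.92% at the median, and between 1.20% and 14.3% over all rat values at 0. The largest difference between the highest and the lowest rat was 100 points and the smallest 29.2, with a median of 55.2 points, against 10 points at all CpGs.

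The members with the most reads among those with every band held by at least 2 rats show the steps clearly. At chr14:10150563 (rn6), the level was 97.0%, 52.1% and 53.0% in UNT 1 to 3, 95.7%, 48.6% and 97.2% in L-DOPA 1 to 3, and 1.17%, 0% and 50.8% in L-DOPA+R 1 to 3. UNT and L-DOPA rats thus lay in the same bands here, and the low band held L-DOPA+R rats only. At chr17:9039212, the level was 92.1%, 89.0% and 1.52% in UNT, 56.5%, 2.29% and 56.2% in L-DOPA, and 88.1%, 92.9% and 59.2% in L-DOPA+R. Here 1 rat of UNT and 1 of L-DOPA were low, and the groups overlapped. At chr15:23440060, which was read on both strands in all rats, the level was 91.4%, 46.4% and 40.7% in UNT, 0.769%, 49.5% and 48.3% in L-DOPA, and 90.8%, 44.0% and 1.8% in L-DOPA+R. The high, middle and low rats were spread over the treatments. At chr8:51813079, the 3 UNT rats were in the middle band (49.8%, 55.7% and 43.1%). The L-DOPA rats there had 91.8%, 0% and 92.8%, and the L-DOPA+R rats 0%, 94.1% and 37.9%. At chr4:183270128, each of UNT and L-DOPA held 1 rat in every band, with 97.6%, 49.4% and 0.565% in UNT, 97.9%, 1.19% and 44.3% in L-DOPA, and 97.6%, 45.1% and 97.8% in L-DOPA+R. A step without a middle level was seen at chr1:28900358, where UNT 1 and UNT 2 had 95.2% and 93.7%, UNT 3 had 2.86%, and all treated rats were at 0%, which allows up to 10.7% in the rat with the fewest reads.

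The rule used both striata of a rat. To see whether the steps return in a striatum that did not choose them, the bands were taken from the 9 control striata alone, without the CpGs at which the UNT rats lay in 1 band and the treated rats in another. At the 812 CpGs found in this way, of which 196 were members, the lesioned striatum lay in the band of the control striatum of the same rat at 62.8% to 87.6% of CpGs. With the lesioned striatum of another rat, the share was between 50% and 78.0%, and each of the 9 rats shared more bands with its own lesioned striatum than with that of any other rat. With bands from the lesioned striata (783 CpGs), the shares were 65% to 86.7% with the same rat and 51% to 76.1% with other rats, and again each of the 9 rats was closest to itself. This comparison was chosen after the members were seen.

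**Figure D2:**
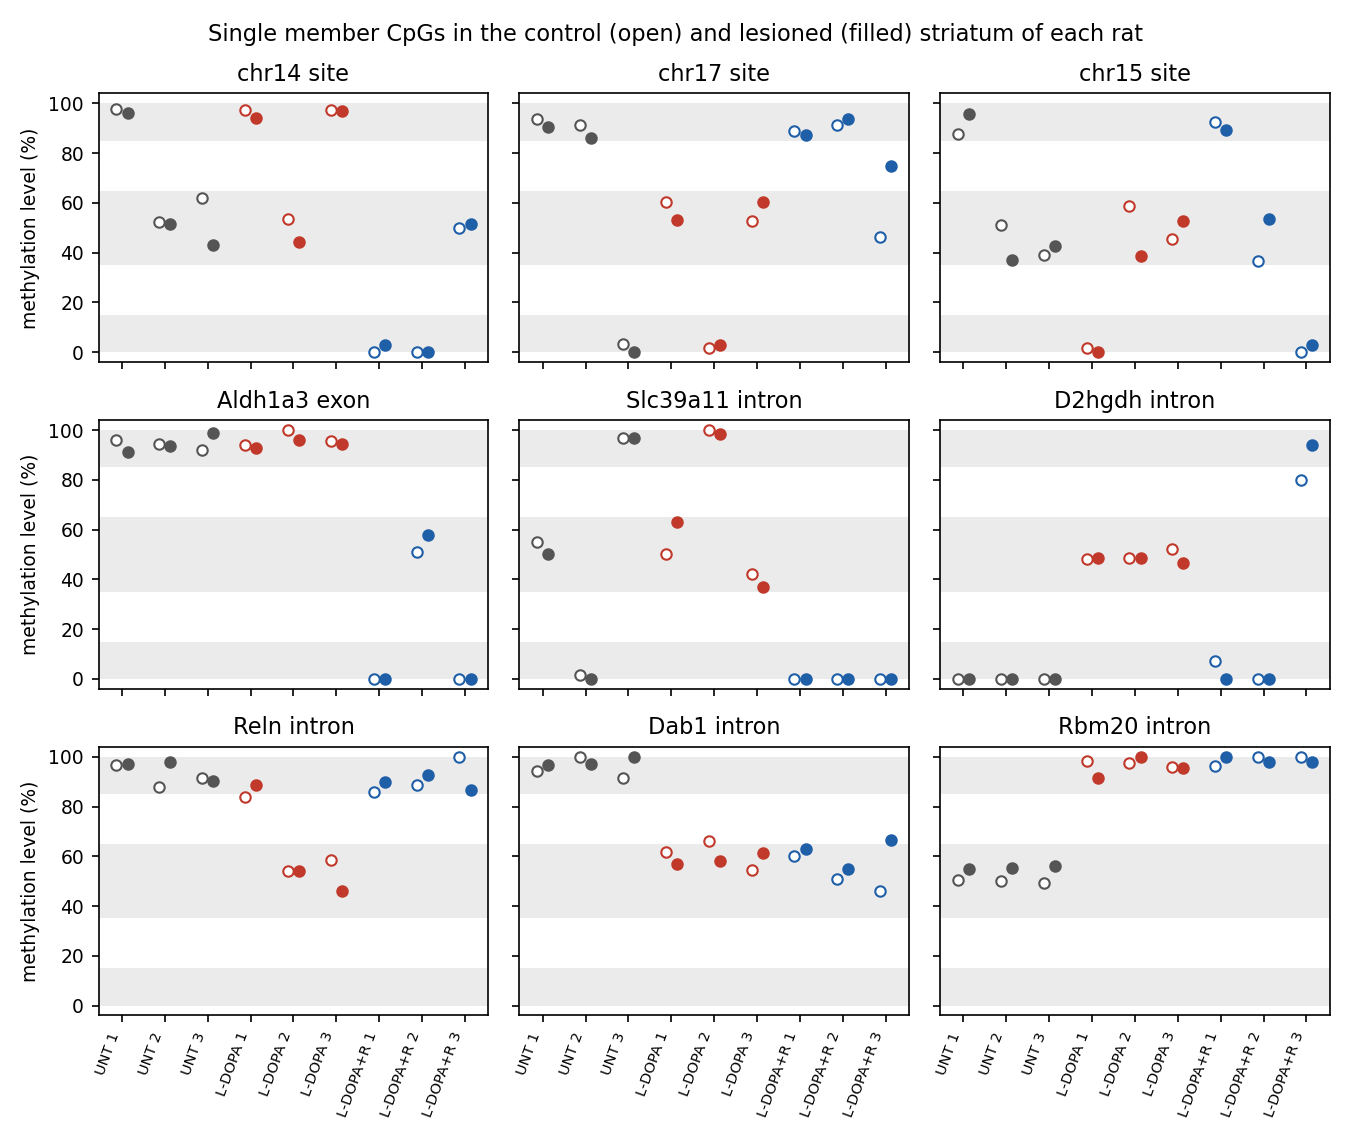
Methylation level (%) of 9 members in the control (open) and the lesioned (filled) striatum of each rat, with UNT in grey, L-DOPA in red and L-DOPA+R in blue, and the 3 bands of the rule shaded. By the rule, both striata of a rat lie within 30 points of each other. The rats of a treatment lie in different bands at the sites on chr14, chr17 and chr15, as do the UNT and the L-DOPA rats in Slc39a11.

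The 2 striata of a rat differed by a median of 3.46 points at mixed members, 5.29 at UNT-split members and 3.64 at all CpGs. The rule limits this difference, and the member with the largest one reached 29.6 points, while the nearest CpG left out by this limit had 30.3 points. The median of lesioned minus control was 0 points over the members. Of the rat values, 39.6% were higher and 40.9% lower in the lesioned striatum. The nearest values inside and outside the bands were 14.7% and 15.4%, 35% and 34.9%, 65% and 65.2%, and 85% and 84.9%, so that some members just passed the rule.

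The strands of a CpG were not used by the rule other than through their sum. In mixed members, 245 rat values of the middle band had at least 10 reads on both strands. In 188 of these (76.7%), both strands lay between 20% and 80%, and the median difference between the strands was 12.6 points. At chr15:23440060, the middle rats had 50.6% and 39.6% (UNT 2), 38.4% and 43.4% (UNT 3), 54.0% and 40.6% (L-DOPA 2), 49.4% and 46.9% (L-DOPA 3), and 48.3% and 38.1% (L-DOPA+R 2) on the plus and the minus strand. Both strands thus carried the middle level in each of these rats. In 36 values (from 7 members), the strands were more than 60 points apart, and all 7 members had a cytosine 46 to 50 bases past another. In UNT-split members, 396 middle values had both strands. Only 2 of these (0.505%) had both strands between 20% and 80%, and 314 (79.3%) had strands more than 60 points apart, with a median difference of 79.6 points. Another 239 mixed members had both strands in none of the rats, so that their strands could not be compared.

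**Figure D3:**
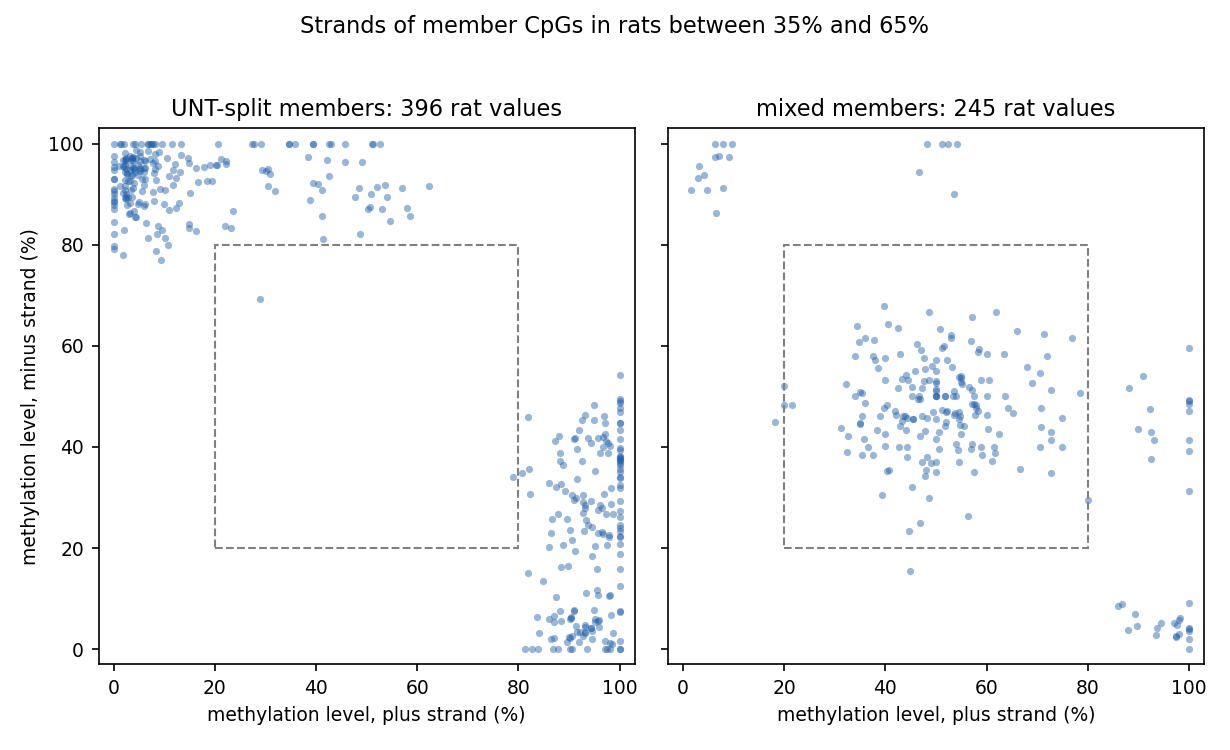
Methylation level of the plus strand (%) against the minus strand (%) for each rat value between 35% and 65% with reads on both strands, in UNT-split members (left, 396 values) and mixed members (right, 245 values). The dashed square marks 20% to 80% on both strands, which holds 2 of the values on the left and 188 of those on the right.

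Other CpGs close to a mixed member moved little between the same rats. Within 50 bases, 301 mixed members had other CpGs that were no members, and these differed by a median of 0.784 points between the rats of the highest and the lowest band, against 51.3 points at the members. The difference stayed within 5 points at 229 (76.1%) and was at least 50% of the member's difference in the same direction at 6. These neighbours had a median level of 92.4%, and 223 (74.1%) were at 85% or more. Between 51 and 1000 bases away, 137 mixed members had other CpGs, and these reached 50% of the member's difference at 0. At most mixed members, a single CpG thus differed between rats while its neighbours did not. Mixed members had a median of 2 other CpGs within 100 bases, as did all CpGs, but 5.5% had at least 5 (all CpGs 19.4%) and 6.73% had none (all CpGs 16.9%). Around the UNT-split members, the CpGs within 50 bases differed by a median of 11.6 points, against 42.3 at the 70 members with such neighbours. At 23 of these (32.9%), the neighbours reached 50% or more of the member's difference.

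**Figure D4:**
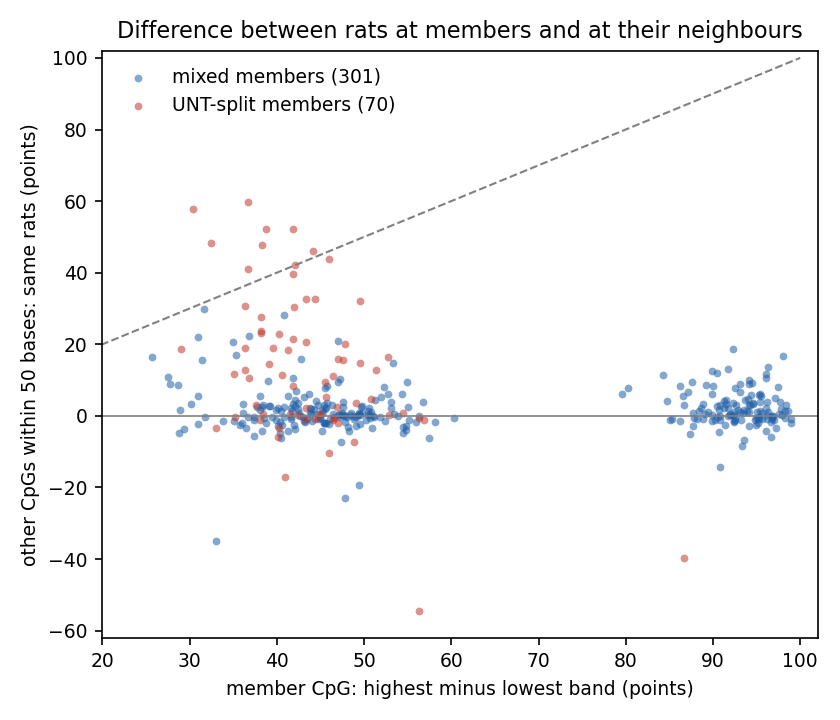
Difference between the rats of the highest and of the lowest band at a member (points, horizontal) and the mean difference between the same rats at other CpGs within 50 bases (points, vertical), for 301 mixed and 70 UNT-split members. The dashed line marks equal differences, and most mixed members lie near 0 on the vertical axis.

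Mixed members that lay close together often had the same pattern over the rats. Among the 12 pairs that were more than 10 and up to 100 kb apart, 5 (41.7%) had the same bands in all 9 rats, and 7 (58.3%) the same or mirrored bands, where low in 1 CpG goes with high in the other. Of the 63 pairs that were more than 100 and up to 1000 kb apart, 9 (14.3%) had the same bands. Of the 2834 pairs further apart on a chromosome, 17 (0.600%) had the same bands, and of the 50388 pairs on different chromosomes 243 (0.482%). Pairs share CpGs and rats, and the counts are a description. Within 10 kb, there were 4 pairs, and all had the same or mirrored bands.

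**Figure D5:**
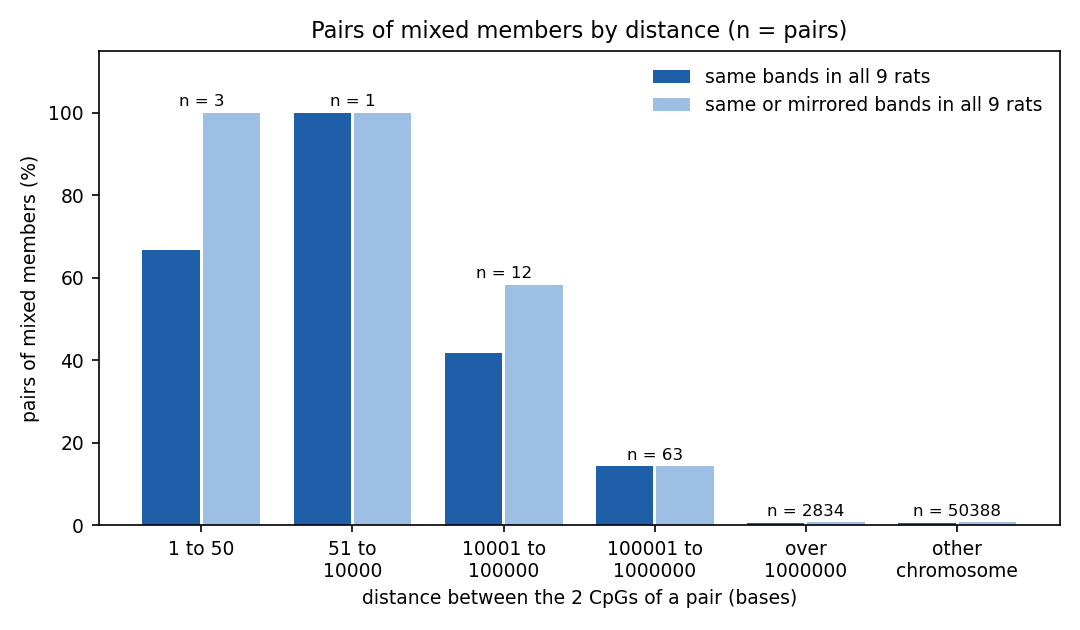
Share of pairs of mixed members (%) with the same bands (dark) and with the same or mirrored bands (light) in all 9 rats, by the distance between the 2 CpGs in bases, with the number of pairs above the bars. The share falls from 41.7% to 14.3% and 0.600% with growing distance for the same bands, and the first 2 groups hold only 3 pairs and 1 pair.

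On chromosome 13, the CpGs at 83100979, 83101000 and 83778260 had the same pattern. At the first of these, the level was 1.92%, 2.11% and 62.0% in UNT, 0%, 100% and 1.54% in L-DOPA, and 57.4%, 0% and 93.3% in L-DOPA+R. The third, 677281 bases away, had 0%, 0% and 50.8% in UNT, 0%, 87.1% and 0% in L-DOPA, and 37.3%, 0% and 97.8% in L-DOPA+R. The same rats were low, middle and high at both. The minus strand of the first CpG had 10 or more reads only in the 4 rats of the middle and the high band, with 100% in UNT 3, L-DOPA 2 and L-DOPA+R 1 and 98.6% in L-DOPA+R 3, while the plus strand was at 48.3% and 51.2% in the middle rats UNT 3 and L-DOPA+R 1. The fragment of the minus strand was thus not covered with 10 reads in the 5 low rats.

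Mirrored bands were found at chr12:37298310 and chr12:37298317, 7 bases apart. The first was at 51.4% and 64.7% in UNT 1 and UNT 2 and between 0% and 2.17% in the other rats, and it had a cytosine 50 bases past another. The second was at 48.2% and 36.7% in UNT 1 and UNT 2 and between 93.9% and 100% in the others, so that the same 2 rats stood apart in opposite directions. On chromosome 14, the CpG at 11974274 had 39.9%, 1.4% and 48.4% in UNT, 92.5%, 91.8% and 94.3% in L-DOPA, and 93.9%, 89.6% and 1.69% in L-DOPA+R. The CpG at 12005627, 31353 bases away, had 50%, 99.1% and 58.6% in UNT, 0%, 0% and 4.76% in L-DOPA, and 4.17%, 0% and 92.2% in L-DOPA+R. The low rats of the first were the high rats of the second, and the middle rats were the same.

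At the mixed members, rats of the same treatment and rats of different treatments shared bands at similar medians. This class leaves out the UNT-split members, at which UNT and treated rats lie in different bands by definition. The similarity is thus partly set by the class. Among all members, the median share was 62.4% (59.95% to 81.8%) within treatments and 43.2% (39.3% to 63.6%) between treatments. Over the mixed members, the 9 pairs of rats of the same treatment had the same band at a median of 52.6% (49.5% to 77.1%) and the 27 pairs of different treatments at 52% (47.4% to 58.7%). The 3 pairs with the highest shares were UNT 1 and UNT 2 with 77.1%, L-DOPA 1 and L-DOPA 3 with 66.4%, and L-DOPA+R 1 and L-DOPA+R 2 with 62.1%, each within a treatment and above every pair between treatments. The relation of the rats to each other was not given in the sources used here. The share of middle values lay between 29.4% (L-DOPA 2) and 38.2% (UNT 3). A rat was alone in its band at 2 mixed members in UNT 2 and at up to 19 in L-DOPA+R 1.

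The UNT-split members differed from the mixed members in their distance to other called cytosines. Of the 85, 64 (75.3%) had a cytosine 50 bases past a further called cytosine on its own strand and 78 (91.8%) one 46 to 50 bases past, against 7 (2.14%) and 55 (16.8%) of the mixed members and 3.14% and 15.6% of all CpGs. Of the 66 that were high in UNT and in the middle band in the treated rats, 64 had such a cytosine at 50 bases. In all 64 with both strands in a treated rat, it was the strand with the lower level that had it. In the treated rats, this strand had a median of 12.6% and the other strand 93.8%. At 33 of these members, that strand had no UNT rat with 10 reads. At 25, it was read in all UNT rats, with a median of 96.2% in UNT and 38.5% in the treated rats. The coverage of the highest band was 0.530 times that of the lowest at UNT-split members (median) and 1.07 times at mixed members. The counts of differentially methylated sites are also given without such cytosines. The part of the reads' length and ends in the UNT split was not tested. Libraries were also pooled in sets of up to 6 for the bisulfite step, and the part of the pools was not tested.

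The UNT-split members with the most reads show this form. At chr2:193572261, the level was 93.0%, 92.9% and 94.8% in UNT, 49.6%, 47.8% and 51.7% in L-DOPA, and 47.4%, 42.7% and 43.2% in L-DOPA+R. On the minus strand alone, however, the L-DOPA rats had 92.1%, 95% and 96.7% and the L-DOPA+R rats 91.1%, 95.1% and 94.1%. The plus strand was at 2.4% to 9.05% in the treated rats and had too few reads in UNT. The middle level of the treated rats was thus the sum of a high and a low strand. At chr8:73140115, the level was 99.5%, 96.2% and 97.5% in UNT, 47.3%, 43.8% and 48.6% in L-DOPA, and 53.3%, 49.1% and 50% in L-DOPA+R. Both strands were read in all rats. The minus strand was at 97.0% to 100% in UNT and at 38.8% to 44.8% in the treated rats, and the plus strand was at 92.3% or more in all rats. Of the pairs of members with the same bands, those at chr10:30227840 and chr10:30227890, chr16:64896846 and chr16:64896896, and chr9:86362694 and chr9:86362744 were UNT-split members 50 bases apart. At chr10:30227840, the minus strand was low (3.23% to 10.8% in the treated rats), and at chr10:30227890 the plus strand was low (2.11% to 12.1%), so that the low strand of 1 CpG was the opposite of that of the other.

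Gene names were taken from the site lists of the study, which hold sites that the study called on these samples, with transcript accessions matched to symbols through RefSeq, so that only members in these lists could be named. The end of the longest list was not used here, and further members may lie in it. Of the 412 members, 82 were listed and 28 of these had a gene name (13 UNT-split and 15 mixed). With CpGs in more than 1 region counted in each, 19 lay in introns, 11 in exons, 1 in a promoter and 54 were intergenic. Of the genes looked for by name, none of the 10 of the dopamine system, 13 of glutamate receptors and their auxiliary subunits, 9 of cAMP signalling, 7 calcium channels and sensors and 22 imprinted genes held a named member. Among 12 genes of synapse and axon guidance, Reln and Dab1 did. The list of glutamate receptors did not hold Grid1, the gene of a delta subunit of the ionotropic receptors, which did have a member in an intron (chr16:11450077, named after its values were seen). This was a UNT-split member with a cytosine 50 bases past another, with 96.5%, 90.5% and 94.9% in UNT, 48.4%, 55.3% and 49.1% in L-DOPA, and 59.6%, 61.4% and 59.0% in L-DOPA+R.

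Reln encodes reelin, a secreted glycoprotein that guides migrating neurons and acts on synapses in the adult brain. The member in its intron (chr4:9574423) was a mixed member, read on the minus strand. The level was 96.8%, 92.7% and 91.1% in UNT, 86.4%, 54.2% and 53.2% in L-DOPA, and 87.9%, 90.6% and 92.2% in L-DOPA+R. L-DOPA 2 and L-DOPA 3 were in the middle band, while L-DOPA 1 was in the high band with the other treatments and just above its limit. At the CpG within 50 bases, high minus middle rats gave -5.69 points, with a mean level of 89.6%. Dab1 encodes the adaptor that passes the reelin signal into the cell. The member in its intron (chr5:124257817) was a UNT-split member with 96.5% ± 2.07 (SD, n = 3) in UNT, 59.6% ± 2.43 under L-DOPA and 56.8% ± 4.51 under L-DOPA+R, and UNT did not overlap with the others. The plus strand was at 87.3% to 100% in all rats. The minus strand, which has a cytosine 50 bases past another, was at 93.8% to 100% in UNT and at 28.6% to 41.2% in the treated rats. On the plus strand, L-DOPA (87.3% to 100%) overlapped UNT (95.2% to 98.1%), while L-DOPA+R (90.9% to 93.1%) lay a little below UNT. On the minus strand, both treated groups lay far below UNT. At the CpG within 50 bases, UNT minus treated rats gave 47.7 points, against 38.2 points at the member.

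Further genes with many reads held mixed members with large steps. In an exon of Aldh1a3 (chr1:127322195), which encodes an enzyme that makes retinoic acid, the level was 93.6%, 94.2% and 95.2% in UNT, 93.7%, 98.1% and 95.3% in L-DOPA, and 0%, 54.7% and 0% in L-DOPA+R. The L-DOPA+R rats lay below all others. They were in different bands among themselves, and the 2 rats at 0% had 69 and 90 reads, which allow up to 4.35% and 3.33%. Both strands of L-DOPA+R 2 were in the middle (50.8% and 63.3%). In an intron of Slc39a11 (chr10:101823688), a zinc transporter gene, the level was 52.3%, 0.709% and 96.9% in UNT, 56.0%, 99.1% and 40.8% in L-DOPA, and 0% in all L-DOPA+R rats, which allows up to 4.92%. The UNT rats alone held all 3 bands here. In an intron of Arhgap27 (chr10:91441895), the level was 42.1%, 55.6% and 92.2% in UNT, 97.7%, 94.7% and 95.5% in L-DOPA, and 90.1%, 92.7% and 47.3% in L-DOPA+R. The 3 middle rats came from UNT and L-DOPA+R.

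D2hgdh encodes the enzyme that removes D-2-hydroxyglutarate. Its member and that of Farp2 lay 230883 bases apart on chromosome 9 and had the same bands in all rats. At the D2hgdh intron (chr9:100960006), the level was 0% in all UNT rats, 48.4%, 48.6% and 49.4% in L-DOPA, and 3.70%, 0% and 88.1% in L-DOPA+R. At the Farp2 intron (chr9:100729123), which was named after its values were seen, it was 0% in all UNT rats, 42.4%, 37.0% and 43.1% in L-DOPA, and 0%, 0% and 90.4% in L-DOPA+R. The 3 L-DOPA rats agreed at both CpGs, while L-DOPA+R held the low and the high band.

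Among the named UNT-split members without a cytosine 46 to 50 bases past another were those of Rbm20 and Ppp1r14b. In an intron of Rbm20 (chr1:274397891), which encodes a splicing regulator, the level was 52.8% ± 0.427 (SD, n = 3) in UNT, 96.6% ± 1.90 under L-DOPA and 98.6% ± 0.334 under L-DOPA+R, all on the minus strand. At Ppp1r14b (chr1:222229996, exon and promoter), which encodes an inhibitor of protein phosphatase 1, it was 4.92% ± 2.00 in UNT, 49.9% ± 9.99 under L-DOPA and 46.5% ± 3.46 under L-DOPA+R, all on the plus strand. At both, UNT lay apart from the other groups, and the strands could not be compared. The other CpGs within 50 bases differed by 0.264 points at this Rbm20 member and by 20.6 points at Ppp1r14b. A second intronic member of Rbm20 (chr1:274411615, named after its values were seen) had a cytosine at 50 bases and went the other way, with 99.1%, 97.8% and 94.4% in UNT, 48.4%, 54.8% and 46.1% in L-DOPA, and 48.4%, 47.0% and 41.0% in L-DOPA+R. Its plus strand was at 87.9% to 100% in all rats, and its minus strand at 100% in UNT and 18.8% to 27.0% in the treated rats. At Fndc1 (exon, chr1:47662075) and Fam120b (intron, chr1:57378520), both with a cytosine at 50 bases, UNT was at 98.4% ± 1.36 and 94.0% ± 4.26, L-DOPA at 52.3% ± 4.14 and 53.2% ± 3.25, and L-DOPA+R at 45.3% ± 4.32 and 51.1% ± 5.09. On the plus strand, however, Fndc1 was at 89.3% to 100% in all rats, and Fam120b at 95% to 100% in the 4 treated rats with reads there. The minus strand was at 31.3% to 44.7% (Fndc1) and 34.0% to 49.5% (Fam120b) in the treated rats. UNT minus treated rats gave 32 points at the other CpG within 50 bases of the second Rbm20 member, 14.8 points at that of Fndc1, and a mean of 8.34 points at the 3 of Fam120b.

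Some mixed members also separated treatments. At chr1:148470139, the L-DOPA rats had 90.6%, 89.7% and 91.7%, the UNT rats 57.5%, 56.2% and 52.1%, and the L-DOPA+R rats 58.8%, 36.5% and 52%. At chr1:77422220, the L-DOPA rats had 46.5%, 50.9% and 48.7% and the L-DOPA+R rats 95.7%, 97.1% and 97.5%, but UNT held both bands with 99.0%, 97.5% and 50%. At chr16:14837517, all UNT and L-DOPA rats were at 0% and the L-DOPA+R rats at 41.7%, 47.0% and 62.8%. The highest level that 0 methylated reads allow was 5.88% there.

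For the comparison of treatments, a logistic model was fitted to the reads of every CpG, with correction for overdispersion, a chi-square test and Benjamini-Hochberg adjustment over all tested CpGs, with a q under 0.01 for differentially methylated sites (DMS). Each striatum was a sample, although striata from the same rat are not independent samples. Since the members were chosen for large differences between rats, the counts are a description. Of the members, 118 were DMS in L-DOPA against UNT, 26 with a higher and 92 with a lower level in L-DOPA, while 0.351% of all tested CpGs were DMS (0.0828% higher and 0.269% lower). All 85 UNT-split members were among the 118, and 33 of the 327 mixed members (13 higher and 20 lower). In L-DOPA+R against UNT, 112 members were DMS, 22 higher and 90 lower in L-DOPA+R, with 0.445% of all tested CpGs (0.0839% higher and 0.361% lower), and again all 85 UNT-split members and 27 mixed members (9 higher and 18 lower). Both comparisons share the UNT rats. In L-DOPA+R against L-DOPA, 21 members were DMS, 11 higher and 10 lower, with 0.0477% of all tested CpGs (0.0201% higher and 0.0276% lower). All 21 were mixed members. By definition, the treated rats share a band at UNT-split members, so that few calls could be made there in this comparison. The calls of UNT-split members against UNT likewise largely follow from how the class was formed.

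Seen from the DMS, members were a small part. At the CpGs present in all striata, 118 of 1442 DMS in L-DOPA against UNT (8.18%), 112 of 1865 in L-DOPA+R against UNT (6.01%) and 21 of 149 in L-DOPA+R against L-DOPA (14.1%) were members. The median difference was -41.2 points over the UNT-split members and 0 points over the mixed members in L-DOPA against UNT, and -0.00614 points over all CpGs. In L-DOPA+R against UNT, these were -39.9, -0.429 and -0.265 points. The 2 classes were formed by the bands of the UNT and the treated rats, so that the contrast between their medians follows from the split. Without cytosines 50 bases past another, 45 members were DMS in L-DOPA against UNT and 41 in L-DOPA+R against UNT. Without those at 46 to 50 bases, 31 and 24 were. The excess of lower calls was not kept, with 23 higher and 22 lower (50 bases) and 14 and 17 (46 to 50 bases) in L-DOPA against UNT, and 20 and 21, and 10 and 14, in L-DOPA+R against UNT. The share of DMS among all tested CpGs also fell, to 0.159% and 0.0782% in L-DOPA against UNT and to 0.227% and 0.132% in L-DOPA+R against UNT. With the rat as the unit, 99 members were DMS in L-DOPA against UNT and 99 in L-DOPA+R against UNT (0.331% and 0.481% of all tested CpGs). The F test gave 78 and 76 (0.0622% and 0.0578%). In L-DOPA+R against L-DOPA, no member was a DMS with the F test, and with the rat as the unit 10 were, while the share among all tested CpGs was 0.000352% and 0.034%. Without the rat L-DOPA+R 3, 38 were, and without L-DOPA 2, 36, with shares among all tested CpGs of 0.0941% and 0.065%.

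Between the lesioned and the control striata, 0 members were DMS by the chi-square test in each treatment, with 0.00193% of all tested CpGs in UNT, 0.00101% under L-DOPA and 0.00176% under L-DOPA+R. The rule limits the difference of the striata, so that few calls could be made. An unadjusted p under 0.05 was found at 20 members in UNT, 9 under L-DOPA and 11 under L-DOPA+R, which is 4.85%, 2.18% and 2.67% of the members against 6.45%, 5.4% and 6.29% of all tested CpGs. The F test also called 0 members, and it called 0 of all tested CpGs in each treatment. The fit with the rat as a block called 0 members as well. With this fit, the share among all tested CpGs was 0.00400% in UNT, 0.00581% under L-DOPA and 0.00805% under L-DOPA+R. A test of the difference of treatment effects between the sides called 0 members in each of the 3 comparisons, with an unadjusted p under 0.05 at 17 (L-DOPA against UNT), 8 (L-DOPA+R against UNT) and 3 (L-DOPA+R against L-DOPA). These were 4.13%, 1.94% and 0.728% of the members against 6.05%, 6.44% and 6.12% of all tested CpGs, of which 0, 0 and 2 were called.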

How the data were processed

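RRBS of 18 striata of 9 rats was used. Per the labels and the methods, the authors trimmed the reads with Trim Galore 0.4.0 and mapped them to rn6 with Bismark. Coverage was deposited by the authors as the count of C and T reads per cytosine, without a minimum or normalization, and the methylated and unmethylated shares were deposited as percent of these reads. Methylated reads were rebuilt from both and rounded.

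Python 3.11.15, numpy 2.4.6, pandas 2.3.3 and scipy 1.17.1 were used. Cytosines with at least 10 reads were kept, strands added up, and CpGs tested as methylKit does. Between treatments, CpGs in at least 4 of 6 striata per group were tested, within a treatment those in all 6. The method was tested on simulated data. The median coverage of kept cytosines was 15 to 23 reads, and intervals cover counting error only.

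The members and gene lists were chosen with earlier results of these data known. Named sites were ordered by their lowest number of reads: up to 6 with all bands, 4 with the low and high band alone, 4 with the middle and an outer band, 4 UNT-split members, 3 that split L-DOPA and L-DOPA+R, 3 runs, the members in listed genes, 8 in further genes, and the nearest to each limit. The members on chromosomes 9, 12, 13 and 14 named for their pairs, Farp2, Grid1 and the second member of Rbm20 were chosen after their values were seen. Alternatives were other minimums, bands, strands, tests, units and blocks, each replicate left out, and cytosines 50 or 46 to 50 bases past another left out.

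The labels name no animal, and striata of the same treatment and number were taken as those of 1 rat. Deviations from the group mean correlated between them with a mean r of 0.0644 over all CpGs (0.0332 to 0.112 in the 9 rats) and 0.922 over the members, where the rule limits the difference. Rats of different treatments share no more than a number. Per the methods, libraries were pooled in sets of at most 6 before bisulfite treatment and amplification. Which striata shared a pool is not given in the sources used here, so the part of the pools was not tested. The rn6 sequence was not used here, so no sequence is shown.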

Additional observations from a re-analysis of the deposited data

How the results depend on the processing

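The number of members was 412 and moved to 141 with a minimum of 20 reads, 168 with bands of 0% to 10%, 40% to 60% and 90% to 100%, 189 with the plus strand alone and 177 with the minus strand alone. It was 344 and 294 without cytosines 50 and 46 to 50 bases past another, 540 with no limit between the striata, 405 without CpGs of very high coverage, and 434 to 513 with a rat left out. Members called in L-DOPA against UNT numbered 118 (0.351% of all tested CpGs were called), and 78 with the F test (0.0622%) and 268 with no overdispersion correction (0.744%). They numbered 45 without cytosines 50 bases past another (23 higher and 22 lower, 0.159%) and 31 without those at 46 to 50 bases (14 and 17, 0.0782%). Leaving out a replicate gave 107 to 140, with 0.306% to 0.402% of all tested CpGs. In L-DOPA+R against UNT, 112 (0.445% of all tested CpGs) became 265 with no overdispersion correction (1.22%) and 72 of the 302 members tested with 20 reads (0.599%). Without cytosines at 50 and at 46 to 50 bases, they became 41 and 24 (20 higher and 21 lower, and 10 and 14), with 0.227% and 0.132%. With a replicate left out, 108 to 134 were called, with 0.374% to 0.589% of all tested CpGs. In L-DOPA+R against L-DOPA, 21 (0.0477% of all tested CpGs) became 0 with the F test (0.000352%), 10 with the rat as the unit (0.034%) and 166 with no overdispersion correction (0.285%). The counts with a replicate left out were 18 to 38, with 0.0405% to 0.0941% of all tested CpGs. They were 38 without L-DOPA+R replicate 3 (0.0941%) and 36 without L-DOPA replicate 2 (0.065%). With the replicate number as a block, 163, 156 and 81 members were called in these comparisons, with 0.42%, 0.511% and 0.0932% of all tested CpGs, though between treatments the number pairs different rats. With the rat as a block, the counts between the striata stayed at 0 in each treatment. The shares of all tested CpGs were 0.00400% in UNT, 0.00581% under L-DOPA and 0.00805% under L-DOPA+R.

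The share of middle values with both strands between 20% and 80% was 29.6% over all members and 23.1% with 20 reads. It was 91.1% without cytosines at 46 to 50 bases, but all 135 values left were from mixed members. Over the mixed members alone, the share was 76.7%, and 77.9% with 20 reads and 91.1% without these cytosines. The share of pairs on different chromosomes was 0.482%, and 0.796% with mirrored bands added. With a strand alone, the difference between the highest and the lowest rat lay between -1.92 and 10.7 points on 1 strand at 11 of the 14 named UNT-split members with such a value. Among them were Dab1 with 4.97 points on the plus strand and chr16:31328569 with 0. At the named mixed members, it moved beyond the spread at 1 of 19. Most of these 19 were read on 1 strand only, so that their value could not move, and the 2 counts cannot be compared. The difference turned at 2 members, from 52.2 to -0.297 points at chr2:193572261 with the minus strand alone and from 55.7 to -1.92 points at chr8:73140115 with the plus strand alone. The cause of these changes was not tested, other than that a single strand, a higher minimum and narrower bands leave fewer CpGs. With 20 to 979 reads per rat, levels near a limit of the bands can fall on either side of it by counting error.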
